A study of Mus musculus with 8 samples.

Results

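The 56 genes described here are the mouse translation initiation factor genes on the array, taken as every gene whose symbol begins with Eif and a digit from 1 to 6. They are measured by 78 of the 55681 probes that are not controls, and by symbol they are 56 of 20972 named genes. For 54 of them the probe with the highest mean was above background on all 8 arrays, and these 54 were tested among 28491 features. The other two genes were not tested. Eif4e3, a cap-binding relative of eIF4E, was above background on 0 of 8 arrays. Eif5b, the GTPase that joins the ribosomal subunits, was above background on 2 of 3 untreated arrays and on no 4OHT or vehicle array, which gives no fold.

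The cells were mouse embryonic stem cells, which are pluripotent cells, grown in medium with LIF, a cytokine that maintains them, and with the FGF receptor inhibitor PD173074 at 250 nM in all groups. In the 4OHT group (3 arrays) 5 µM actinomycin D, a blocker of transcription, was given and then, after 30 min, 250 nM 4-hydroxytamoxifen for 4 h. The vehicle group (2 arrays) had the same actinomycin D with ethanol for the 4 h. The untreated group (3 arrays) was collected at 0 h with neither agent according to its treatment label, while its titles also carry a short form of actinomycin D. The target of 4OHT in these cells is not given in the labels. The series is titled for Erk and mRNA degradation, so 4OHT against vehicle sets mRNA levels with and without 4OHT side by side under a transcription block.

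Translation initiation begins when the small ribosomal subunit, held by eIF1, eIF1A, eIF3 and eIF5, receives the initiator tRNA from the eIF2 complex. The cap-binding complex eIF4F, made of eIF4E, the scaffold eIF4G and the helicase eIF4A, brings it to the mRNA, and it then scans for a start codon. Kinases that phosphorylate eIF2 and proteins that sequester eIF4E are the main brakes on the pathway, and growth factor signalling through ERK acts on eIF4E through the Mnk kinases.

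Arrays that followed actinomycin D were dimmer, with a 75th percentile of signal of 180 to 209 on the 4OHT arrays, 166 and 205 on the vehicle arrays, and 333 to 457 on the untreated arrays. Spots well above background made up 53.0 to 57.4%, 55.6 to 60%, and 61.0 to 75.7% of these groups. Values below are log2 signal minus the array's 75th percentile, here called the relative level, and a difference on that scale says how a gene moved against the 75th percentile of its array. A spike-in scale, set on control RNA probes, is given beside it, because the directions differ between these scales. All 4OHT arrays lay on a slide of their own, so slide and 4OHT cannot be told apart. Vehicle and untreated arrays were on the other slide, with a row for each group, and between them the effect of the row cannot be told apart from that of treatment. All 8 pluripotent stem cell markers were detected, with a log2 summed level of 10.04 to 10.21 on the 4OHT, 10.26 to 10.28 on the vehicle and 9.60 to 9.83 on the untreated arrays. That sum follows the brightest markers, and with vehicle against untreated 4 of the 8 rose, while Sox2 fell by 3.54 and Zfp42 fell by 1.06. Of 6 fibroblast feeder markers 3 were tested and Lum was below background on all arrays, with sums of 1.94 to 2.11, 1.67 to 1.84, and 1.28 to 1.84. All 6 primitive endoderm markers were tested, with sums of −1.83 to −1.28, −1.56 to −1.34, and −0.56 to −0.17. Of 6 trophoblast markers 4 were tested and Elf5 was below background on all arrays, with sums of 1.01 to 1.68, 0.71 to 1.57, and 1.80 to 2.61. The part of these cells in the results was not tested.

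Many mRNAs of the translation machinery start with a C and a run of pyrimidines, the terminal oligopyrimidine tract, through which mTOR signalling controls their translation. The start windows below are shown for subunit genes that rose relative to the 75th percentile after actinomycin D, chosen so that some have the tract and some lack it, for genes that differed with 4OHT, and for Eif1ax, which is set against Eif1a. None is shown for Eif1a. Each window holds 10 bases before and 20 bases from the RefSeq start (GRCm38.p6). Capitals mark a C followed by at least 4 bases that are C or T, beginning within 5 bases of the start on the transcribed strand.

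Eif3f (chr7:108934405-108934434, + strand): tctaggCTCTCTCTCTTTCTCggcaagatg

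Eif3l (chr15:79075213-79075242, + strand): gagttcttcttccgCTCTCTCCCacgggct

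Eif2b5 (chr16:20498807-20498836, + strand): ctctttCTCTCCCTgcaactacaccttcgc

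Eif3b (chr5:140419295-140419324, + strand): ggcgcgcggtgaCTTCTgggagtcggaagc

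Eif2s3x (chrX:94212632-94212661, − strand): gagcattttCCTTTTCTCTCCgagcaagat

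Eif3k (chr7:28981869-28981898, − strand): aaccggcgctggtgctgaaagcgcctttcc

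Eif2s2 (chr2:154892887-154892916, − strand): aaggttggctttactgtacgcctgcgcttt

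Eif4a1 (chr11:69672404-69672433, − strand): gtaacgtcacgtcgagttgcagagcgccgg

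Eif2ak3 (chr6:70844505-70844534, + strand): agcagacgcacggaaCCCTCgctcaatggg

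Eif4e (chr3:138526181-138526210, + strand): aaacagcagcggaggcggagggagctggtc

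Eif1 (chr11:100319939-100319968, + strand): ggcgtcacaggggcggctatataagtgaat

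Eif1ax (chrX:159372168-159372197, + strand): ggaggagggcggggagaagccccgcccgct

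The tract is 15 bases long in Eif3f and 12 in Eif2s3x, and 5 in Eif3b and Eif2ak3, while the windows of Eif3k, Eif2s2, Eif4a1, Eif4e, Eif1 and Eif1ax hold none. A tract was found in 14 of the 43 family genes with a start window here (32.6%) and in 21.2% of the 27025 genes in the table. Genes with and without it had close medians in each comparison. The 14 with a tract had median differences of −0.09 with 4OHT against vehicle, 0.71 with vehicle against untreated and 0.68 with 4OHT against untreated. The 29 without had −0.07, 0.64 and 0.66.

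With 4OHT against vehicle, 3 initiation factor genes fell, 1 rose and 50 did not pass the test. Eif1a, which encodes a form of the scanning factor eIF1A, fell 2.27-fold. Eif4e, the cap-binding protein, fell 1.82-fold, and Eif2ak3, the eIF2 kinase of endoplasmic reticulum stress also called PERK, fell by 0.59 on the log2 scale. Eif1, which guards start codon choice, rose 1.38-fold on the probe that represents it. Of all features tested, 3.5% were called, 0.923% higher and 2.58% lower, against 1.85% and 5.56% of the 54 genes. The median difference was −0.08 over the family and −0.05 over all features. On the spike-in scale Eif1a, Eif4e and Eif2ak3 fell and 0 genes rose (0 at an unadjusted p under 0.05), with medians of −0.39 and −0.36 and with 4.34% of features called, 0.14% higher and 4.2% lower. The groups did not overlap for 29 of the 54 genes, or 53.7%, against 38.2% of all features. The median standard error was 0.11 over the family and 0.17 over all features. It was lower over the family in each comparison, so shares called or not overlapping are set against noisier features.

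**Figure D1:**
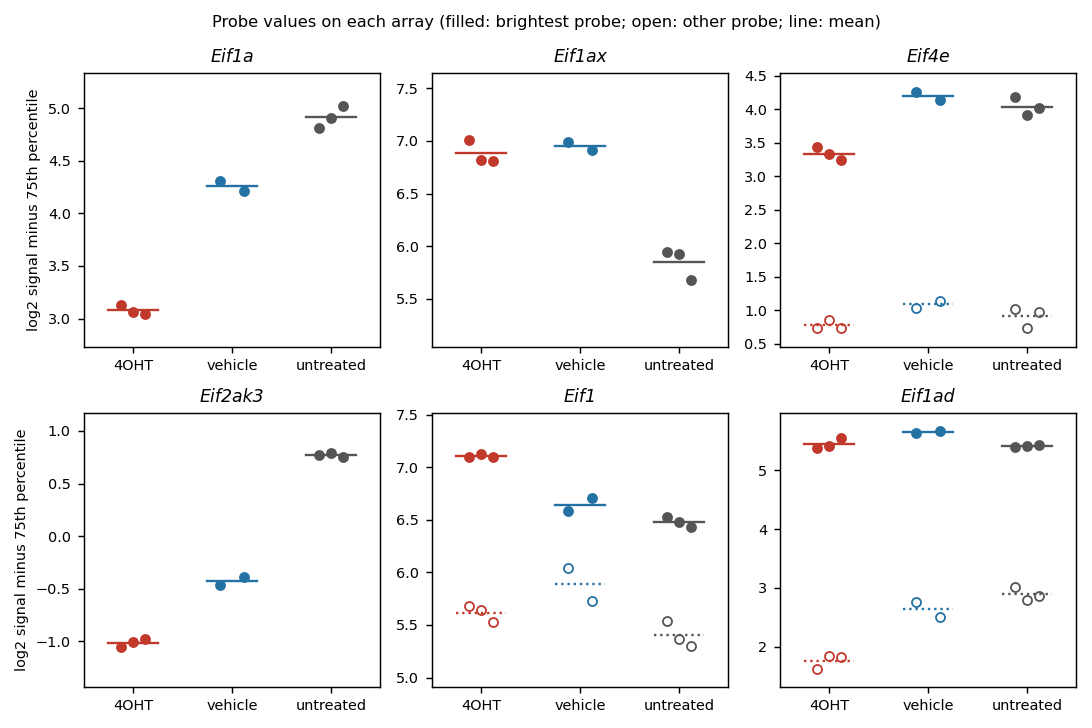
Relative level (log2 signal minus the array's 75th percentile) on each array for 6 genes, with 4OHT, vehicle and untreated groups from left to right. Filled points are the brightest probe, open points a gene's other probe and lines the group means. Eif1a is lowest on the 4OHT arrays and highest on the untreated arrays, and the probes of Eif1 and of Eif1ad do not move alike.

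Eif1a has 1 probe, designed for NM_010120. Its relative level was 3.13, 3.07 and 3.04 on the 4OHT arrays, against 4.31 and 4.21 with vehicle and 4.81, 4.91 and 5.02 untreated. All 3 groups were apart, at 3.08 ± 0.05 (SD, n = 3) with 4OHT, 4.26 ± 0.07 (SD, n = 2) with vehicle and 4.91 ± 0.11 (SD, n = 3) untreated. The difference between 4OHT and vehicle was −1.18 ± 0.10 (limma, Benjamini-Hochberg adjusted p = 0.0058) and −1.49 on the spike-in scale. It passed the test without any one of the 8 arrays (adjusted p from 0.014 to 0.042). Here and below, leaving out a vehicle array leaves 1, which is assumed to vary like the other groups. The call was lost with median scaling (−1.07, adjusted p = 0.10), without scaling (−1.14, adjusted p = 0.097), with the replicate block (−1.20, adjusted p = 0.068) and with a 1.5-fold minimum (adjusted p = 0.11).

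Eif1ax, the X-linked gene of the same factor, did not follow it. It stood at 7.01, 6.82 and 6.81 with 4OHT, against 6.99 and 6.92 with vehicle and 5.94, 5.93 and 5.68 untreated. The 4OHT and vehicle arrays overlapped (−0.07 ± 0.12, adjusted p = 0.82). A constant added to an array cancels in the difference between both genes' changes. That difference, Eif1ax minus Eif1a, was 1.11 for 4OHT against vehicle, with 1.05 to 1.20 between single arrays. With vehicle against untreated it was 1.76, with 1.54 to 2.05. Probe sequences were not used here, so signal shared between such near-identical genes was not tested.

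Eif4e read 3.44, 3.33 and 3.24 on its brightest probe with 4OHT, against 4.26 and 4.14 with vehicle and 4.18, 3.92 and 4.02 untreated. The 4OHT arrays lay below both other groups, which overlapped each other. Against vehicle the difference was −0.87 ± 0.12 (adjusted p = 0.017; −1.18 on the spike-in scale). Its other probe read 0.74, 0.85 and 0.73 with 4OHT, against 1.03 and 1.14 with vehicle, a difference of −0.31 ± 0.12 that did not pass (adjusted p = 0.22). The call was lost without 4OHT replicate 2 (adjusted p = 0.066) or 3 (0.054) and without vehicle replicate 1 (0.092) or 2 (0.057), at values of −0.93 to −0.81. It was also lost with median scaling (adjusted p = 0.36), no scaling (0.14), no filter (0.079), only the groups compared (0.069), the replicate block (0.080) and a 1.5-fold minimum (1). Eif4e2, a cap-binding relative, stood at −0.24 ± 0.14 (adjusted p = 0.40). On the brightest probes its change exceeded that of Eif4e by 0.63, with 0.53 to 0.74 between single arrays.

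Eif2ak3 stood at −1.05, −1.01 and −0.98 with 4OHT, against −0.46 and −0.39 with vehicle and 0.77, 0.79 and 0.75 untreated. The 3 groups were again apart. Against vehicle the difference was −0.59 ± 0.08 (adjusted p = 0.020), and −0.89 on the spike-in scale. This call was lost without 4OHT replicate 1, 2 or 3 (adjusted p = 0.053, 0.076 and 0.060) and without vehicle replicate 1 or 2 (0.081 and 0.077). It was also lost with normexp background correction (−0.35, adjusted p = 0.066), median scaling (0.70), no scaling (0.41), no filter (0.11), only the groups compared (0.089), the replicate block (0.11) and a 1.5-fold minimum (1). The other eIF2 kinases did not pass, with Eif2ak1 (the heme-regulated kinase) at −0.16, Eif2ak2 (PKR, activated by double-stranded RNA) at −0.21 and Eif2ak4 (the amino acid sensor) at 0.06.

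Eif1 read 7.09, 7.12 and 7.10 on its brightest probe with 4OHT, against 6.58 and 6.70 with vehicle and 6.53, 6.48 and 6.44 untreated. On this probe the 4OHT arrays were above both other groups, by 0.46 ± 0.09 over vehicle (adjusted p = 0.042; 0.16 on the spike-in scale). A further probe for the same transcript read 5.68, 5.64 and 5.52 with 4OHT, against 6.04 and 5.73 with vehicle and 5.53, 5.37 and 5.30 untreated. It differed the other way, by −0.27 ± 0.13 (adjusted p = 0.33), and the mean of both probes differed by 0.10 (adjusted p = 0.66). Leaving out any one of the 8 arrays ended the call of Eif1 (0.40 to 0.53, adjusted p from 0.068 to 0.19), as did each setting named for Eif2ak3.

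The remaining groups held no called gene in this comparison. All 14 eIF3 subunit genes, which encode the scaffold on the small subunit, were not called, with a median of −0.07, and 0 passed at an unadjusted p under 0.05. The same held for the 4 eIF2 genes (median −0.07) and both eIF5A genes (median 0.04), which encode a factor that relieves stalled ribosomes. Of the 5 genes of eIF2B, the exchange factor that recharges eIF2 with GTP, 0 were called (median −0.06), and Eif2b2 stood at −0.40 ± 0.11 (adjusted p = 0.12). Of the 4 eIF4E-binding protein genes, also with 0 called (median −0.23), Eif4enif1, which carries eIF4E to the nucleus and to decay bodies, stood at −0.40 ± 0.11 (adjusted p = 0.12). Eif2b2 and Eif4enif1 were the genes of their groups past an unadjusted p of 0.05.

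Among the genes grouped under eIF4F and its cofactors, the helicases differed in sign without passing. Eif4a3, the helicase of the exon junction complex, stood at −0.51 ± 0.11 (adjusted p = 0.056), its close copy Eif4a3l1 at −0.37 ± 0.09 (adjusted p = 0.091) and Eif4a1 at −0.22 ± 0.12 (adjusted p = 0.36). Eif4a2 stood at 0.43 ± 0.14 (adjusted p = 0.16). With an intensity trend in limma, Eif4a3 (adjusted p = 0.016) and Eif4a3l1 were called lower as well, and Eif4a3 also with a filter over all 8 arrays (adjusted p = 0.038). The scaffold gene Eif4g1 stood at 0.00 ± 0.11 (adjusted p = 1).

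The vehicle arrays lay far from each other for 2 of the eIF3 genes, Eif3j2 and Eif3d. Eif3j2 read 4.12, 4.04 and 4.18 with 4OHT, against 2.74 and 4.16 with vehicle and 3.24, 3.18 and 3.22 untreated. Vehicle against untreated differed by 0.95 without vehicle replicate 1 and by −0.47 without vehicle replicate 2, so the sign of the difference rests on which vehicle array is used, and 4OHT against vehicle gave −0.05 and 1.37. No call is read from these values, since each sets a single vehicle array, with a spread taken from the other groups, where the 2 vehicle arrays themselves lie far apart. Eif3d read 7.94, 7.99 and 8.05 with 4OHT, against 7.28 and 8.08 with vehicle and 7.36, 7.23 and 7.13 untreated. Vehicle replicate 1 lay within the untreated range. The difference of vehicle against untreated was 0.84 without it and 0.05 without vehicle replicate 2, again from a single vehicle array, and no call is read from either.

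**Figure D2:**
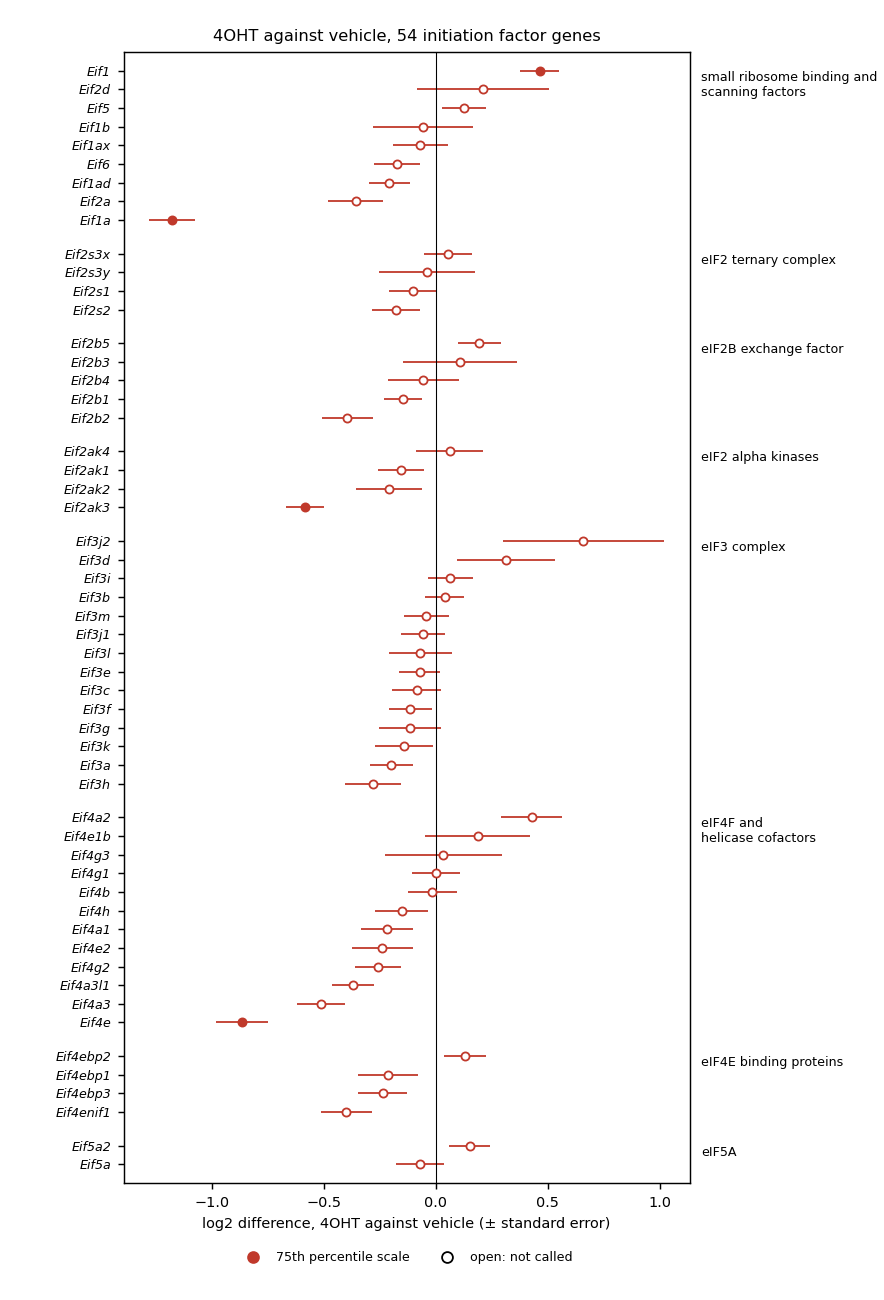
Log2 difference of 4OHT against vehicle with its standard error for the 54 tested genes, by role. Filled points passed the test (adjusted p under 0.05). Eif1a, Eif4e and Eif2ak3 lie below 0 and Eif1 above it, and the other 50 genes are open.

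Vehicle against untreated asks how the mRNAs stood after actinomycin D without 4OHT. The vehicle arrays also had ethanol for 4 h and the untreated arrays were collected at 0 h. Ethanol and time in culture thus cannot be told apart from actinomycin D. Relative to the 75th percentile, 38 initiation factor genes rose, 2 fell and 14 did not pass the test. The core subunit genes of eIF3 and eIF2 were among the 38, and the 2 that fell were Eif2ak3 and Eif1a. On the spike-in scale no gene of the family rose (0 also at an unadjusted p under 0.05) and 29 fell, with all 54 differences below 0. Of all features tested, 57.5% were called, 41.5% higher and 15.9% lower, against 70.4% and 3.70% of the 54 genes. On the spike-in scale 65% of features were called, 0.112% higher and 64.9% lower. The median difference was 0.68 over the family and 0.40 over all features, and −0.59 and −0.88 on the spike-in scale. The family median lay above that of all features by 0.28 relative to the 75th percentile. The spike-in scale shifts each array by a constant, so it must give the same gap and is no further check. With a filter over all 8 arrays the gap was 0.20. The family median lay below that of all features by 0.15 after quantile normalization, by 0.03 after cyclic loess and by 0.08 with normexp. Groups did not overlap for 46 of the 54 genes, or 85.2%, against 71.5% of all features. In RNA from whole cultures, fewer cells of a type and less RNA per cell cannot be told apart.

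**Figure D3:**
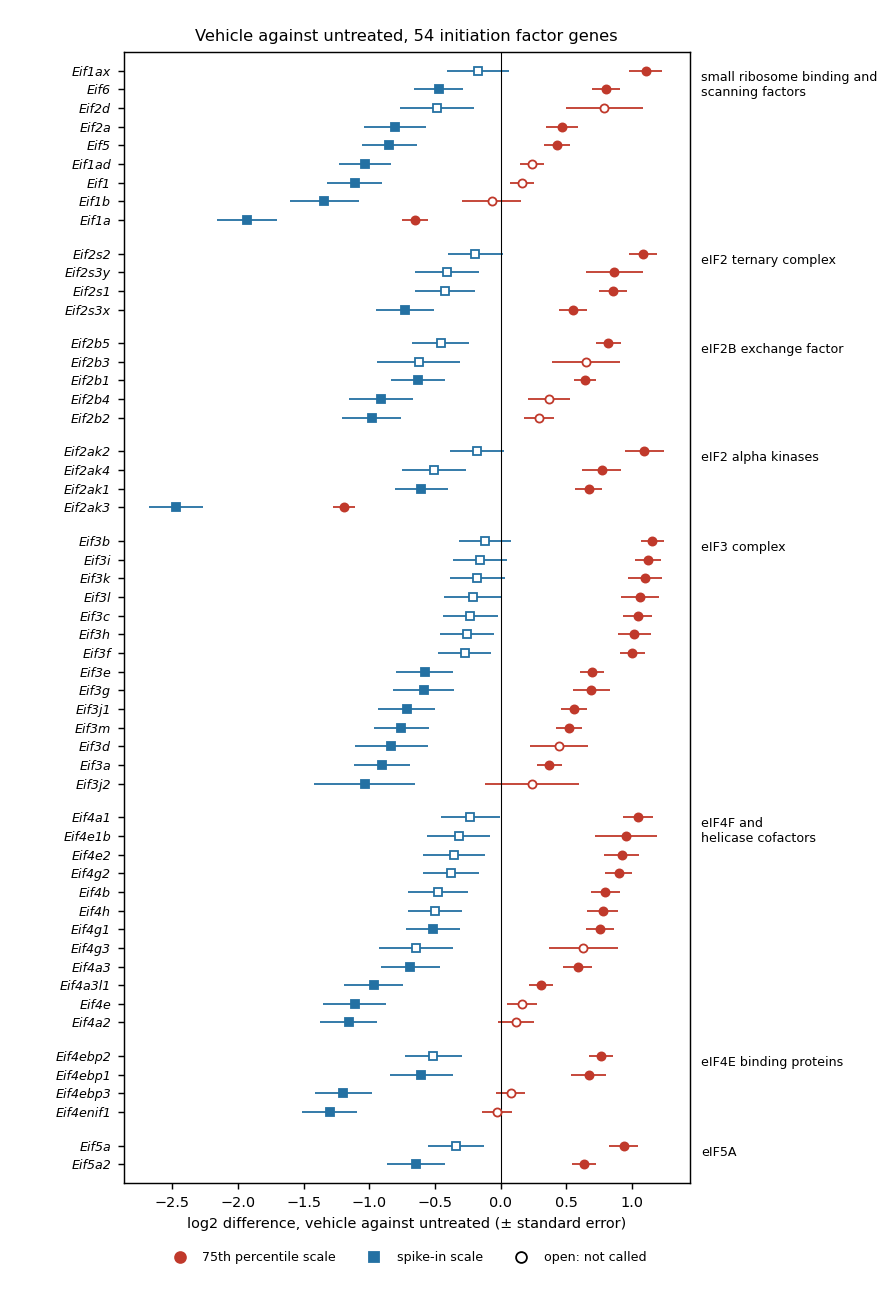
Log2 difference of vehicle against untreated with its standard error for the 54 tested genes, by role, relative to the 75th percentile (circles) and to the spike-in probes (squares). Filled symbols passed the test. Circles are mostly above 0 and all squares below it, and Eif2ak3 and Eif1a are lowest on both scales.

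Of the 9 tested genes grouped as small subunit binding and scanning factors, 4 rose and 1 fell (median 0.43). The group also holds Eif6, a factor of the large subunit, among the 4 that rose. Over all features 41.5% rose and 15.9% fell (median 0.40), so this group stood close to all features. Eif1ax was higher by 1.1 ± 0.12 (adjusted p = 0.00043), and at −0.17 on the spike-in scale, with untreated arrays below all others. Eif6, which keeps large subunits from joining early, rose by 0.80 and Eif5, which activates the GTPase of eIF2, by 0.43 (−0.47 and −0.85 on the spike-in scale). Eif2a, a factor of alternative initiation, rose by 0.47, a call lost without vehicle replicate 1 (0.43, adjusted p = 0.070). Eif1a fell by 0.65 ± 0.10, with adjusted p = 0.0015, and stood at −1.93 on the spike-in scale. On their brightest probes Eif1 (0.16), Eif1ad (0.24), Eif1b (−0.07) and Eif2d (0.79) did not pass. The other Eif1 probe rose by 0.49 ± 0.13 (adjusted p = 0.017), and the other Eif2d probe by 0.87 ± 0.30 (adjusted p = 0.043).

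The 4 genes of eIF2 all rose, with a median of 0.86. Eif2s2, the beta subunit, read 8.42, 8.46 and 8.39 with 4OHT, against 8.67 and 8.53 with vehicle and 7.63, 7.53 and 7.39 untreated. The untreated arrays were below the rest, and the difference of vehicle against untreated was 1.08 ± 0.11 (adjusted p = 0.00031; −0.19 on the spike-in scale). The alpha subunit gene Eif2s1 rose by 0.85, and the gamma subunit genes Eif2s3x and Eif2s3y by 0.55 and 0.87. The call of Eif2s3y was lost without vehicle replicate 2 (0.61, adjusted p = 0.079). Of the 5 eIF2B genes Eif2b5 (0.82 ± 0.10) and Eif2b1 (0.64 ± 0.08) rose, a share near the 41.5% of all features. Eif2b3 did not pass on its brightest probe (0.65), while its other probe rose by 0.78 ± 0.22 (adjusted p = 0.021). Eif2b2 read 5.61, 5.62 and 5.57 with 4OHT, against 5.98 and 6.01 with vehicle and 5.89, 5.58 and 5.65 untreated, and its difference of 0.29 ± 0.11 did not pass (adjusted p = 0.062) except without untreated replicate 1 (0.38, adjusted p = 0.017).

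The eIF2 kinases parted. Eif2ak3 fell by 1.20 ± 0.08, with adjusted p = 0.00011 and a spike-in difference of −2.47, and the other three rose. Eif2ak2 read 0.56, 0.87 and 0.96 with 4OHT, against 0.91 and 1.1 with vehicle and −0.08, −0.20 and 0.00 untreated, a rise of 1.09 ± 0.15 (adjusted p = 0.00085; −0.18 on the spike-in scale). Eif2ak4 read 1.92, 2.02 and 1.95 with 4OHT, against 1.69 and 2.11 with vehicle and 1.22, 0.97 and 1.20 untreated, a rise of 0.77 ± 0.15 (adjusted p = 0.0041; −0.51 on the spike-in scale). In both, untreated arrays were below the others. Eif2ak1 rose as well, by 0.67 ± 0.10 (spike-in scale, −0.60). The changes of Eif2ak1, Eif2ak2 and Eif2ak4 exceeded that of Eif2ak3 by 1.87, 2.29 and 1.96, differences in which a constant added to an array cancels.

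Of the 14 eIF3 genes 12 rose and 0 fell (0 at an unadjusted p under 0.05), with a median of 0.85, against −0.43 on the spike-in scale with 7 lower. Eif3b, a core subunit, read 5.64, 5.77 and 5.71 with 4OHT, against 5.66 and 5.68 with vehicle and 4.53, 4.54 and 4.48 untreated. Its rise was 1.15 ± 0.09 (adjusted p = 0.00015; −0.12 on the spike-in scale). Eif3i, its partner subunit, read 5.55, 5.66 and 5.68 with 4OHT, against 5.50 and 5.63 with vehicle and 4.52, 4.38 and 4.44 untreated, a rise of 1.12 ± 0.10. In both genes the 4OHT and vehicle arrays overlapped, and the untreated arrays lay about a log2 unit lower. Eif3k read 8.25, 8.29 and 8.36 with 4OHT, against 8.50 and 8.38 with vehicle and 7.57, 7.25 and 7.22 untreated, a rise of 1.1 ± 0.13. Eif3l read 8.52, 8.52 and 8.53 with 4OHT, against 8.74 and 8.45 with vehicle and 7.74, 7.49 and 7.37 untreated, a rise of 1.06 ± 0.14. On the spike-in scale these 3 genes stood at −0.16, −0.18 and −0.21. The smallest rise called was that of Eif3a, a scaffold subunit, by 0.37 ± 0.09, lost without vehicle replicate 1 (0.35, adjusted p = 0.060).

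Of the 12 tested genes grouped under eIF4F and its cofactors 9 rose and 0 fell (median 0.77, and −0.51 on the spike-in scale). The group also holds the relatives Eif4e2, Eif4e1b, Eif4a3 and Eif4a3l1, which all rose on their brightest probes. The count is thus not one of eIF4F alone. Eif4a1, the main helicase, read 8.58, 8.57 and 8.49 with 4OHT, against 8.71 and 8.82 with vehicle and 7.88, 7.72 and 7.57 untreated. The untreated arrays were lowest, with a rise of 1.04 ± 0.12 (adjusted p = 0.00042; −0.23 on the spike-in scale). The scaffold genes Eif4g1 (0.76) and Eif4g2 (0.90), and the helicase cofactors Eif4b (0.80) and Eif4h (0.78), rose as well, and all 4 were below 0 on the spike-in scale (−0.52 to −0.38). Eif4e did not pass (0.16 ± 0.12, adjusted p = 0.27), nor did Eif4a2 (0.12 ± 0.14, adjusted p = 0.49), while Eif4e2 rose by 0.92 ± 0.14, all on the brightest probe. The scaffold gene Eif4g3 (0.63) did not pass on its brightest probe either. The probes of Eif4a2 and of Eif4e2 disagreed. The other Eif4a2 probe rose by 0.62 ± 0.10 (adjusted p = 0.0015), and the other 2 Eif4e2 probes, at 0.04 and 0.28, did not pass (adjusted p = 0.84 and 0.35). The calls of 2 further genes rested on few arrays. Eif4e1b, an eIF4E relative, rose by 0.95, which was lost without vehicle replicate 2 (0.80, adjusted p = 0.075). Eif4a3l1 rose by 0.31 and was lost without either vehicle array (adjusted p = 0.099 and 0.081) or untreated replicate 2 or 3 (0.066 and 0.077).

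Of the 4 genes for eIF4E-binding proteins, Eif4ebp2 (0.76) and Eif4ebp1 rose, and Eif4ebp3 (0.08) and Eif4enif1 (−0.03) did not pass. That share is near the 41.5% of all features, and the median was 0.37, against 0.40 over all features. On the spike-in scale the medians were −0.90 and −0.88. Eif4ebp1 read 7.49, 7.18 and 7.34 with 4OHT, against 7.56 and 7.54 with vehicle and 6.82, 7.05 and 6.76 untreated, a rise of 0.67 ± 0.13 (adjusted p = 0.0046; −0.61 on the spike-in scale). Both eIF5A genes rose. Eif5a read 7.71, 7.81 and 7.75 with 4OHT, against 7.75 and 7.91 with vehicle and 7.02, 6.81 and 6.84 untreated, a rise of 0.94 ± 0.11 (adjusted p = 0.00047; −0.34 on the spike-in scale). In these genes too the untreated arrays were below the others.

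The comparison of 4OHT with untreated shares its arrays with the other comparisons. In it 41 genes rose, 4 fell and 9 did not pass, and on the spike-in scale 0 rose (0 at an unadjusted p under 0.05) and 50 fell, with all 54 differences below 0. Of all features 59.8% were called, 41% higher and 18.7% lower, and on the spike-in scale 93.6%, with 0.102% higher and 93.5% lower. Medians were 0.65 over the family and 0.31 over all features, and −0.93 and −1.27 on the spike-in scale. The family median lay below that of all features by 0.16 with quantile normalization, by 0.05 with cyclic loess and by 0.02 with normexp. Groups did not overlap for 47 of the 54 genes, or 87.0%, against 66.4% of all features. Those that fell were Eif1a (by 1.83 ± 0.09, adjusted p = 1.3e-05), Eif2ak3 (by 1.78 ± 0.08, adjusted p = 7.5e-06), Eif4e (by 0.71 ± 0.11, adjusted p = 0.0011) and, chosen after its values were seen, Eif4enif1 (by 0.43 ± 0.10, adjusted p = 0.0091). The other Eif4e probe stood at −0.14 ± 0.11 and did not pass (adjusted p = 0.30). A dimmer probe of Eif1ad fell by 1.13 ± 0.12 (adjusted p = 0.00022), while the brightest probe of Eif1ad stood at 0.03 and did not pass. The calls of Eif4e and Eif4enif1 were lost with median scaling (adjusted p = 0.092 and 0.40) and with a 1.5-fold minimum. Of the 14 eIF3 genes 13 rose (median 0.82), and of the 4 eIF2 genes all rose (median 0.79). Of the 12 grouped under eIF4F and its cofactors, relatives included, 9 rose and 1 fell (median 0.65). The calls of Eif2b3, Eif3j2 and Eif4g3 were lost without some arrays. Eif2b3 (0.76) was lost without 4OHT replicate 1 or untreated replicate 1 or 3 (adjusted p from 0.069 to 0.076). Eif3j2 (0.90) was lost without any 4OHT or untreated array (0.087 to 0.11). Eif4g3 (0.66) was kept only without 4OHT replicate 1 or untreated replicate 1 (0.054 to 0.12 otherwise).

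**Figure D4:**
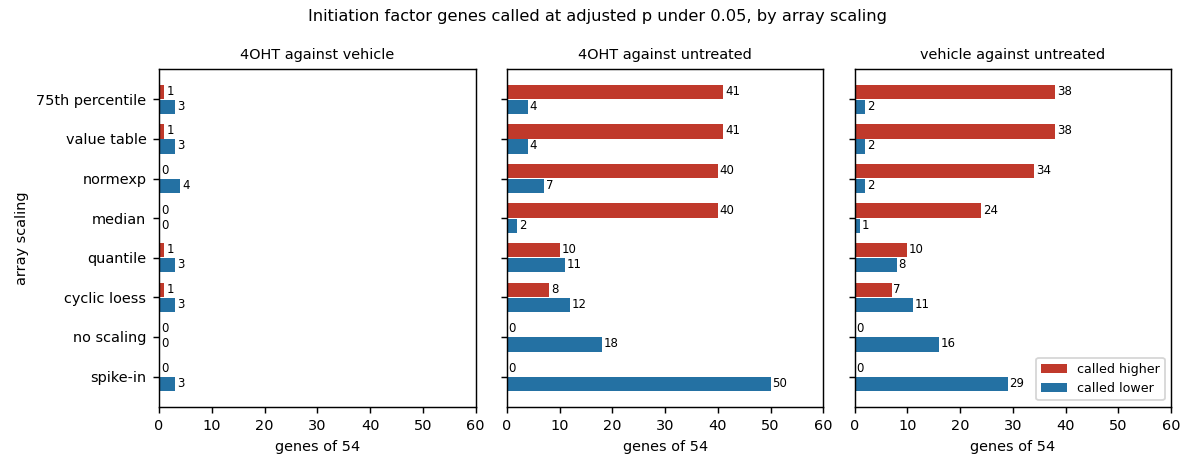
Number of the 54 tested genes called higher (red) and lower (blue) at adjusted p under 0.05, by array scaling, for 4OHT against vehicle, 4OHT against untreated and vehicle against untreated. Calls against untreated are mostly higher relative to the 75th percentile and all lower relative to the spike-in probes.

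Of the 54 tested genes 18 had several probes, which is a check on the calls of those genes only. Eif1a and Eif2ak3 have no other probe, so their calls have no such check. In vehicle against untreated the probes of 1 of these genes, Eif1ad, differed in sign, and in 4OHT against vehicle those of 7 did: Eif1, Eif2b3, Eif3c, Eif3k, Eif4b, Eif4e2 and Eif5. Of all features, 0.923% rose and 2.58% fell with 4OHT against vehicle, and 41.5% and 15.9% with vehicle against untreated. The shares over all single probes are not given here. Tested one by one, 1 of 75 probes of the family rose and 4 fell with 4OHT against vehicle, and 54 rose and 2 fell with vehicle against untreated. The fourth probe that fell belongs to Eif1ad, which encodes a protein with an eIF1A-like domain. It read 1.62, 1.85 and 1.82 with 4OHT, against 2.76 and 2.52 with vehicle and 3.02, 2.79 and 2.87 untreated, so that the 4OHT arrays were lowest (−0.87 ± 0.13 against vehicle, adjusted p = 0.021). Its brightest probe read 5.38, 5.40 and 5.54 with 4OHT, against 5.63 and 5.66 with vehicle and 5.39, 5.41 and 5.43 untreated (−0.21 ± 0.09 against vehicle, adjusted p = 0.28).

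Other genes of translation were taken from lists of elongation and termination factors, of partners and regulators of initiation, and of known terminal oligopyrimidine mRNAs. With 4OHT against vehicle, 0.923% of all features rose and 2.58% fell (median −0.05). Of 24 partner and regulator genes 1 rose and 1 fell (median −0.02), too few to set the list apart from all features. Ppp1r15a, the inducible subunit of the eIF2 phosphatase known as GADD34, read 2.36, 2.24 and 2.31 with 4OHT, against 1.23 and 1.16 with vehicle and 3.25, 3.44 and 3.07 untreated. It lay between vehicle and untreated on the 4OHT arrays and rose by 1.11 against vehicle, with adjusted p = 0.011 and a spike-in difference of 0.80. Denr, which recycles small subunits and aids reinitiation, read 3.00, 3.00 and 3.10 with 4OHT, against 3.99 and 3.80 with vehicle and 3.81, 3.56 and 3.64 untreated, and fell by 0.86 (adjusted p = 0.017). Mcts1, the partner of the Denr protein, stood at −0.12 and did not pass. Of 13 elongation and termination factors 2 fell and 0 rose (4 and 1 at an unadjusted p under 0.05), namely Gspt2, a release factor GTPase (by 1.07, adjusted p = 0.036), and Pelo, which rescues stalled ribosomes (by 0.74, adjusted p = 0.015). Of 10 terminal oligopyrimidine mRNAs 0 were called (median −0.11), with 2 lower and 0 higher at an unadjusted p under 0.05.

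With vehicle against untreated, 41.5% of all features rose and 15.9% fell relative to the 75th percentile (median 0.40). On the spike-in scale 0.112% of all features rose and 64.9% fell (median −0.88). Of the 24 partner and regulator genes 19 rose and 2 fell relative to the 75th percentile (median 0.71). On the spike-in scale 0 rose and 13 fell (median −0.57). The 2 that fell were Ppp1r15b, the constitutive subunit of the same phosphatase (by 2.24), and Ppp1r15a (by 2.06), and Mcts1 rose by 1.26, against −0.015 on the spike-in scale. Of the 13 elongation and termination factors 10 rose and 2 fell relative to the 75th percentile (median 0.77), whereas on the spike-in scale 0 rose and 6 fell (median −0.51). Those that fell were Pelo (by 3.45), which read 0.08, 0.04 and −0.0034 with 4OHT, against 0.79 and 0.77 with vehicle and 4.31, 4.13 and 4.25 untreated, and Gspt2 (by 0.86). The elongation factors Eef1b2 (1.26), Eef2 (1.21), Eef1g (1.15) and Eef1a1 (1.13) rose, and stood at −0.15 to −0.014 on the spike-in scale. All 10 terminal oligopyrimidine mRNAs, among them the members Eif3e, Eif3f, Eif3h and Eif4b, rose (median 1.07). This list shares genes with the others, such as Eef1b2 at its maximum of 1.26, and is no separate result. Eif4b is on it although its start window held no tract by the rule used above. On the spike-in scale their median was −0.21, with 0 higher and 1 lower.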

How the data were processed

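Total RNA from each culture was labelled and hybridised to single-colour Agilent mouse arrays, per the labels. The deposited intensity values are processed signals from Agilent Feature Extraction 11.0.1.1, after background subtraction, per the file headers, which name mm9. The deposited value table holds the same intensity rounded, with a largest relative difference of 0.0050, and it was used as an alternative. Control spots and outlier spots were left out (466 probes, none of this family), spots of a probe were averaged, and each array's 75th percentile was subtracted from log2 signal, with no pseudocount. A probe was kept if some group had it well above background on all its arrays, and the brightest kept probe represented a gene. RefSeq symbols (GRCm38.p6) served for names only, and start windows came from RefSeq on that build. Tests used limma 3.58.1 (R 4.3.3) in 1 fit of all 8 arrays, with errors as standard errors and two-sided p-values Benjamini-Hochberg adjusted over 28491 features and called under 0.05. The arrays, biological replicates by the design text, supply the spread, and their number limits precision. The fit was also run on simulated data with independent noise. Those data hold no scaling, slide or row effect, so they do not bear on these. The spike-in scale subtracts the mean of 8 of 10 control probes; the labels do not describe adding that RNA.

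The members, their roles and the other lists were chosen with earlier results of these data known. Values of every array are given for all probes of Eif1a, genes called in 4OHT against vehicle, the 6 largest called rises and falls with vehicle, and the brightest gene of each role. Up to 4 called genes each way are named from the other lists. Eif3d, Eif3j2, Eif1ad and genes not called were named after their values were seen. Alternatives were other background correction (normexp, offset 50), scalings, filters, probe summaries, fits and tests, a replicate block, and leaving out each array.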

Additional observations from a re-analysis of the deposited data

How the results depend on the processing

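Calls with 4OHT against vehicle depended on the setting. The 1 gene called higher became 0 with normexp, median scaling, no scaling, spike-in scaling, no filter, the mean of probes, a 1.5-fold minimum, only the groups compared and the replicate block, and leaving out 1 array gave 0 to 1. The 3 called lower became 0 with median scaling, no scaling, a 1.5-fold minimum and the replicate block, 1 with no filter and with only the groups compared, and 5 with an intensity trend, and 1 to 3 without 1 array. For vehicle against untreated, 38 higher and 2 lower became 10 and 8 with quantile normalization, 24 and 1 with median scaling, 0 and 16 with no scaling, 0 and 29 with spike-in scaling, 7 and 11 with cyclic loess and 12 and 1 with a 1.5-fold minimum, and 36 to 40 and 2 to 3 without 1 array. For 4OHT against untreated, 41 and 4 became 10 and 11 with quantile normalization, 0 and 18 with no scaling, 0 and 50 with spike-in scaling, 8 and 12 with cyclic loess and 10 and 2 with a 1.5-fold minimum, and 38 to 40 and 4 without 1 array. Called lower there were 7 with normexp and 2 with median scaling. The cause was not tested.

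These differences of vehicle against untreated changed sign. With spike-in scaling Eif3b was −0.12, Eif3i −0.16, Eif1ax −0.17, Eif3k −0.18, Eif2ak2 −0.18, Eif2s2 −0.19, Eif1 −1.11, Eif2b2 −0.98, Eif2ak4 −0.51, Eif3l −0.21, Eif4a1 −0.23, Eif4ebp1 −0.61, Eif5a −0.34 and Eif4e −1.11. With no scaling Eif2ak2 was −0.0018, Eif2s2 −0.014, Eif1 −0.93, Eif2b2 −0.81, Eif2ak4 −0.33, Eif3l −0.035, Eif4a1 −0.052, Eif4ebp1 −0.43, Eif5a −0.16 and Eif4e −0.93. With quantile normalization Eif1 was −0.67, Eif2b2 −0.40, Eif4a1 −0.027, Eif4ebp1 −0.27 and Eif5a −0.0011, and with cyclic loess Eif1 was −0.66, Eif2b2 −0.43, Eif4ebp1 −0.20 and Eif4e −0.37. Eif1 with 4OHT against untreated was −0.18 with quantile normalization, −0.43 with no scaling, −0.96 with spike-in scaling and −0.13 with cyclic loess. With 4OHT against vehicle, Eif1a, Eif4e and Eif2ak3 were below 0 and Eif1 above 0 under every alternative run, apart from the other probe of Eif1 taken alone (−0.27).

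Whether replicate numbers pair the arrays could not be told from 2 or 3 arrays a group. Same-numbered arrays of different groups correlated at −0.19 to 0.36, and other pairs at −0.36 to 0.23. Between 4OHT and vehicle, same-numbered arrays correlated at 0.36 and 0.22. The deviations of 2 vehicle arrays from their mean mirror each other, so the crossed pairs have the opposite sign. With a replicate block, 37 genes were higher and 2 lower with vehicle against untreated and 39 and 4 with 4OHT against untreated, and Eif1a with 4OHT against vehicle was −1.20 (adjusted p = 0.068). A slide block could not be fitted and was not run, because the 4OHT arrays have a slide of their own.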
